A study of Homo sapiens with 9 samples.

Results

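Collagens are the triple-helical proteins of the extracellular matrix, and 10 of their genes are described here in HK-2 cells exposed to transforming growth factor β1 (TGFβ1): COL1A1, COL1A2, COL3A1, COL5A1 and COL5A2 of the fibril-forming types, COL4A1 and COL4A2 of the basement membrane network, COL6A1 of the beaded filaments, COL7A1 of the anchoring fibrils and the fibril-associated COL12A1. They were chosen by name, and the platform annotation pairs 11963 genes with a probe set of 1 gene symbol. Of the 10, 9 had such a probe set, 29 probe sets in all. COL12A1 had none and was not analysed here. Each gene is given by its brightest probe set, on average over all 9 arrays, and the dimmer sets served as a check.

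HK-2 is an immortalised line from human proximal tubule epithelium. Untreated cells (0 h), cells given TGFβ1 for 24 h and cells given TGFβ1 for 48 h were each measured in 3 runs, on separate days and successive passages, with the plates of a time point pooled into 1 array per run. All of these cells grew in the same defined medium with EGF, hydrocortisone, triiodothyronine and insulin–transferrin–selenium. The design text calls the controls vehicle and the labels call them untreated, the labels state no dose, and no untreated culture of 24 h or 48 h was analysed here, so exposure to TGFβ1 and time in culture cannot be told apart.

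In fibrosis, TGFβ1 is known as an inducer of collagen synthesis, above all in fibroblasts and myofibroblasts, which lay down the type I, III and V fibrils of scar. Epithelial cells rest on a basement membrane whose scaffold is type IV collagen. Its commonest protomer joins COL4A1 and COL4A2 chains, and the genes of these chains lie head to head on a chromosome with a shared promoter region between them. Type VII collagen forms the fibrils that anchor a basement membrane to the tissue beneath.

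Because the results turn on that gene pair, its shared promoter is shown from RefSeq (GRCh38.p14, chr13:110307108-110307333, plus strand). Capitals mark the 126 bases between the annotated start of COL4A1 at 110307157, which is read leftwards, and that of COL4A2 at 110307284, which is read rightwards.
COL4A1 and COL4A2: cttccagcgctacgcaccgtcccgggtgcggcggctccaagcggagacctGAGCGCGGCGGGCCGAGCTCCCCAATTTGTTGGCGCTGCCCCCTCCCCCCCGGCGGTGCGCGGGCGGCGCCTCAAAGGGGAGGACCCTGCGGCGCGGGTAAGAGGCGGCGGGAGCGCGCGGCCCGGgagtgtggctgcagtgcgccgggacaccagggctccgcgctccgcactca
G and C made up 80.2% of the capitals. The promoter of COL7A1, the gene with the largest change at 48 h among the collagens tested, is shown for the same reason (GRCh38.p14, chr3:48595280-48595579, minus strand, start at 48595329). Its capitals mark the matches of the motifs named next.
COL7A1: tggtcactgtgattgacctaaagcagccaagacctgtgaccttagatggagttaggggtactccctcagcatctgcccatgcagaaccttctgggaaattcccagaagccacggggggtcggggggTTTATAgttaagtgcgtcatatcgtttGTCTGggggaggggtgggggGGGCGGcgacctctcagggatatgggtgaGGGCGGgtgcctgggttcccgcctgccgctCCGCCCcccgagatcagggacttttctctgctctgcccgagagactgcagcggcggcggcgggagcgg

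Short motifs were searched on both strands of each promoter, from 250 bases before to 50 bases after a start. CAGAC, the core to which SMAD proteins bind, matched at 1 place in the COL7A1 promoter and at none in those of COL4A1 and COL4A2, and 45.3% of all 35116 promoters of the table held it. The GC box, GGGCGG, matched at 3 places for COL7A1, 2 for COL4A1 and 1 for COL4A2 (45.0% of all promoters). The letters of a TATA box, TATAAA, matched at 1 place for COL7A1 and at none for the type IV pair (11.5%). The COL7A1 match begins at −124 from the start and lies on the strand opposite to the one shown. The CCAAT box matched at 1 place in each type IV window and at none for COL7A1 (34.6%), and the AP-1 motif TGANTCA at none of the 3 (7.71%). The windows of COL4A1 and COL4A2 overlap. Their CCAAT matches are the same bases, and the GC box of COL4A2 is 1 of those counted for COL4A1. No match overlapped another in the COL7A1 promoter. These matches describe the sequence and are not sites shown to be used.

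The values are GCRMA values on a log2 scale, 1 per probe set and array. Array medians lay between 2.20 and 2.23, and a value near them cannot be told from background. Tests were limited to genes that reached 4 on the log2 scale on 3 or more arrays, which left 4368 genes and 4 of the 9 measured collagens: COL4A1, COL4A2, COL6A1 and COL7A1. COL7A1 lay at the floor in untreated cells and passed through its treated arrays, so that its passing the filter was tied to its being higher there. The keratins KRT8, KRT18 and KRT19, EPCAM and the kidney transcription factor PAX8 were above the filter, while 8 of 13 proximal tubule and epithelial markers on the array, among them LRP2, CUBN, SLC34A1 and CDH1, stayed between 0.94 and 2.28 on every array. The proteoglycan LUM was the only one of 11 fibroblast and mesangial markers above the filter, and the other 10, PDGFRA, PDGFRB, DCN and ACTA2 included, stayed between 0.93 and 3.23. The summed log2 value of that list was 25.9 to 26.9 in untreated cells, 25.3 to 26.8 at 24 h and 25.8 to 25.9 at 48 h. Of the 5 epithelial markers tested, 2 fell at each time against untreated cells, where 2.17% of all genes did. EPCAM, a cell adhesion protein, fell by 1.27 at 24 h and by 1.17 at 48 h (limma adjusted p = 0.00116 and 0.00172), and PAX8 fell by 0.60 and by 0.81 (limma adjusted p = 0.0233 and 0.00496). KRT8 differed the other way, by 0.65 at 24 h and 0.46 at 48 h (limma adjusted p = 0.064 and 0.222; 0.0123 and 0.0546 with the block), while KRT18 was at 0.14 and −0.28 and KRT19 at −0.19 and −0.29. The part of these shifts in the collagen results was not tested. None of the 6 endothelial, 4 leukocyte and 4 podocyte markers on the array was above the filter.

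The basement membrane pair COL4A1 and COL4A2 was clearly expressed in untreated cells and higher after TGFβ1 in every run. COL7A1 was higher from a low start, and COL6A1 was higher at 24 h and close to its untreated level at 48 h. The fibril-forming genes stayed at or near background, where 1 of the 4 COL1A1 sets had all treated arrays above all untreated ones. Of the 4 genes tested, 3 (COL4A1, COL6A1 and COL7A1) passed the threshold upwards at 24 h against untreated cells, where 2.63% of all genes did, and 1 (COL7A1) at 48 h, where 2.27% did. With the run as a block, which sets each treated array against the untreated array of its own day, all 4 passed upwards at 24 h (5.95% of all genes) and 3, all but COL6A1, at 48 h (5.22%). None fell, where 2.17% of all genes did at each time (with the block 5.52% at 24 h and 4.81% at 48 h). All 4 were higher in 3 of 3 runs at both times, as were 24.9% of all genes at 24 h and 23.2% at 48 h. The median log2 difference over the 4 collagens was 0.74 at 24 h and 0.68 at 48 h, against 0.02 at both times over all genes tested. These counts and medians include COL7A1, which passed the filter through its treated arrays. With no filter COL7A1 passed upwards at 48 h (limma adjusted p = 0.0195), where 0.811% of all genes did, and not at 24 h (0.0765). A pooled array cannot tell more RNA per cell from more cells that express a gene.

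**Figure D1:**
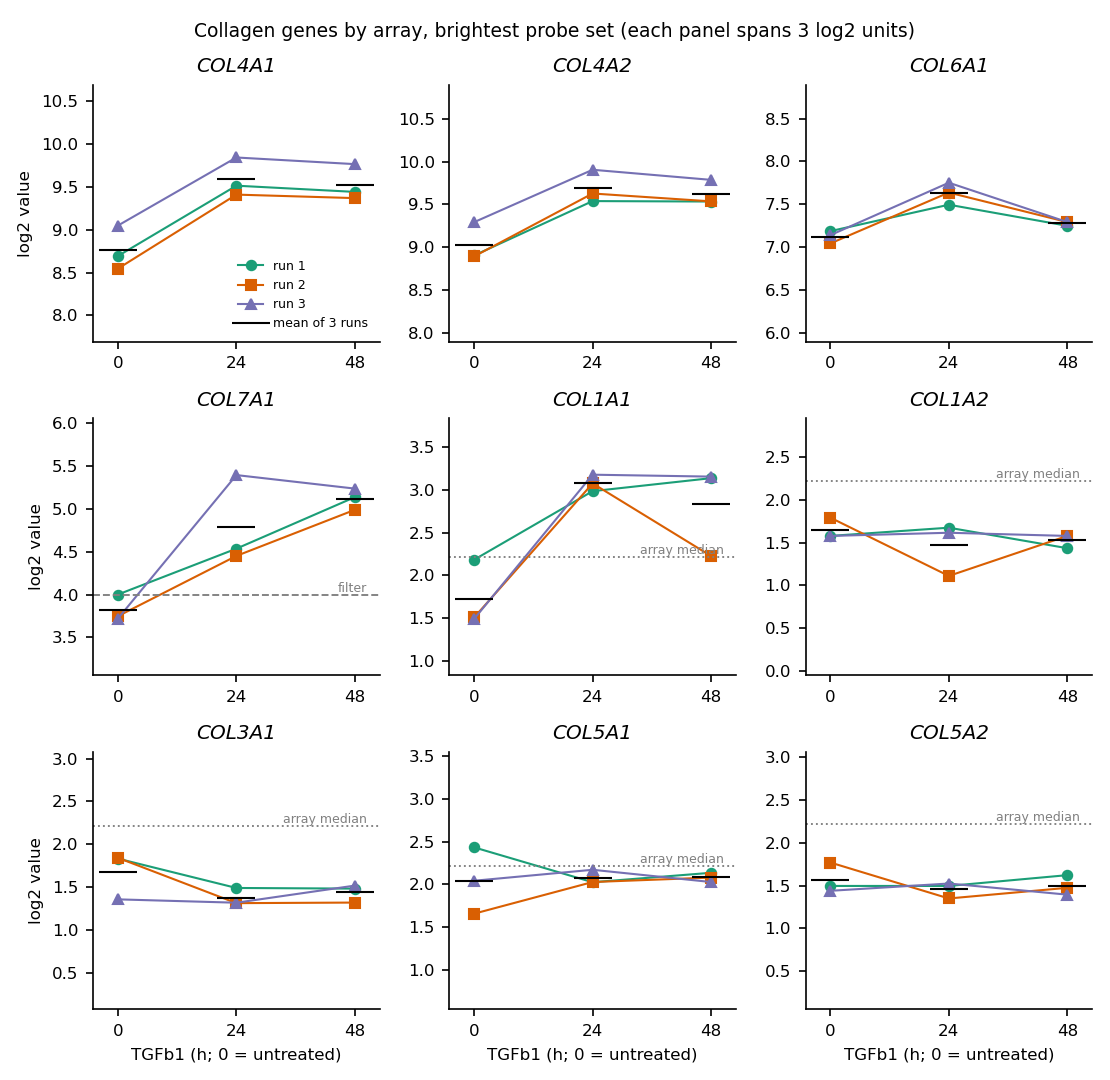
log2 value of the brightest probe set of each of the 9 measured collagen genes (y axis, each panel 3 log2 units high) against hours of TGFb1 (x axis, 0 = untreated), with 1 line per run and a black bar at the mean of 3 runs. Dashed and dotted lines mark the filter at 4 and the median array value. The run lines of COL4A1 and COL4A2 run parallel, COL6A1 peaks at 24 h, COL7A1 crosses the filter, and COL1A2, COL3A1, COL5A1 and COL5A2 stay near or below the array median.

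COL4A1, the alpha1 chain of type IV collagen, had log2 values of 8.69, 8.55 and 9.05 in untreated cells of runs 1, 2 and 3, 9.51, 9.41 and 9.84 at 24 h, and 9.44, 9.37 and 9.77 at 48 h. All treated arrays lay above all untreated ones, which at 24 h held upwards for 8.68% of genes and at 48 h for 9.75%. Run 3 was the highest and run 2 the lowest at each of the 3 times. The difference within a run was 0.82, 0.86 and 0.79 at 24 h, and 0.75, 0.82 and 0.72 at 48 h, so that the 3 runs differed far less in their change than in their level.

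The mean log2 value of COL4A1 was 9.59 ± 0.23 at 24 h, against 8.76 ± 0.26 in untreated cells (SD, n = 3 each), a log2 difference of 0.83 ± 0.19 (SE; 1.77-fold; limma adjusted p = 0.0352). At 48 h its mean was 9.53 ± 0.21, the difference was 0.76 (1.70-fold), and it missed the threshold (limma adjusted p = 0.0521). With the run as a block the SE was 0.098, and both differences passed (limma adjusted p = 0.00123 at 24 h and 0.00191 at 48 h). Without the block the call at 24 h held without the untreated array of run 3 (limma adjusted p = 0.0261) or the 48 h array of run 3 (0.0455), and it was lost without any 1 of the other 7 arrays (0.0524 to 0.134).

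COL4A2, the alpha2 chain, had 8.91, 8.89 and 9.29 in untreated cells, 9.54, 9.63 and 9.90 at 24 h, and 9.53, 9.54 and 9.79 at 48 h. Its groups did not overlap either, and run 3 was again the highest at each time. The difference within a run was 0.63, 0.73 and 0.61 at 24 h and 0.63, 0.64 and 0.49 at 48 h. The log2 difference was 0.66 ± 0.16 (SE; 1.58-fold) at 24 h and 0.59 (1.50-fold) at 48 h, and neither passed without the block (limma adjusted p = 0.0561 and 0.0888). With the block both passed (limma adjusted p = 0.00434 and 0.00804).

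Each type IV gene had a second, dimmer probe set above the filter, and these had larger log2 differences. The second COL4A1 set had 5.88, 5.86 and 6.15 in untreated cells, 6.84, 6.88 and 7.37 at 24 h, and 7.10, 6.90 and 7.20 at 48 h. The second COL4A2 set had 6.11, 6.42 and 6.47 in untreated cells, 7.12, 7.00 and 7.16 at 24 h, and 7.10, 6.95 and 7.19 at 48 h. Neither overlapped with its untreated arrays at either time.

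With every probe set above the filter tested on its own (5924 sets, of which 2.43% passed upwards at 24 h and 2.26% at 48 h), the second COL4A1 set differed by 1.06 ± 0.18 at 24 h and 1.10 at 48 h (SE; limma adjusted p = 0.00934 and 0.00765). The second COL4A2 set differed by 0.76 ± 0.14 and 0.75 (SE; limma adjusted p = 0.0174 and 0.0186). Both therefore passed at 48 h without the block, where the brighter sets of the same genes did not (0.0566 for COL4A1 and 0.0976 for COL4A2). Whether the smaller change of the brighter sets lay in the probes or in the transcripts was not tested.

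**Figure D2:**
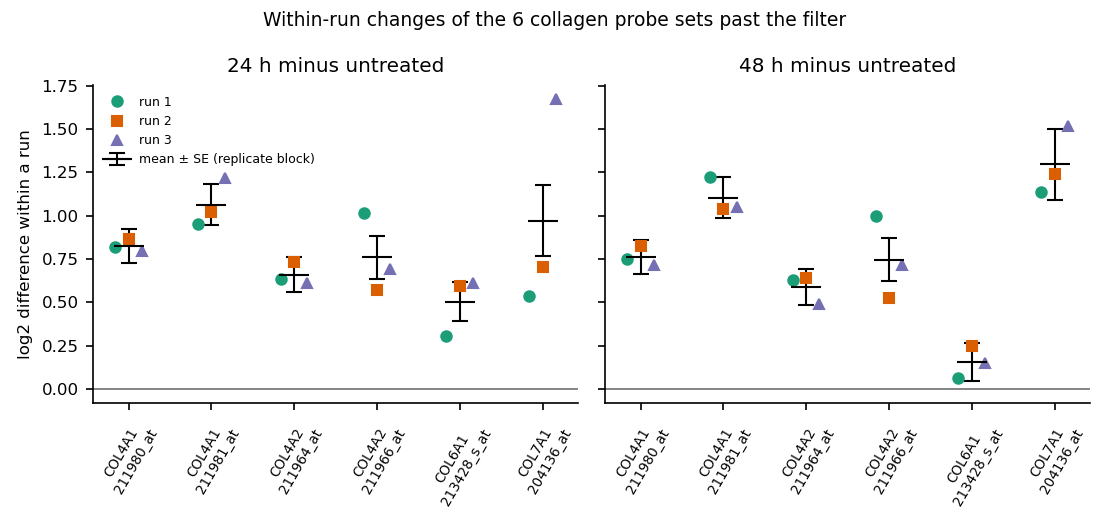
Difference in log2 value within a run (y axis), 24 h minus untreated on the left and 48 h minus untreated on the right, for the 6 collagen probe sets above the filter (x axis). Coloured points are the 3 runs and black bars the mean ± SE of the fit with the run as a block. All points lie above 0, the bright COL4A1 set has the tightest runs at 24 h (0.79 to 0.86) and COL7A1 the widest (0.54 to 1.67).

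COL7A1, the chain of type VII collagen, had 4.00, 3.75 and 3.72 in untreated cells, 4.54, 4.45 and 5.39 at 24 h, and 5.14, 4.99 and 5.24 at 48 h. Every treated array was above every untreated one. At 24 h run 3 stood well above the other runs, and by 48 h the 3 runs lay close together. The difference within a run was 0.54, 0.70 and 1.67 at 24 h and 1.14, 1.24 and 1.52 at 48 h.

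The mean of COL7A1 was 5.12 ± 0.12 at 48 h, against 3.82 ± 0.15 in untreated cells (SD, n = 3 each), a log2 difference of 1.30 ± 0.24 (SE; 2.46-fold; limma adjusted p = 0.0133). Of the 4368 genes, which COL7A1 joined through its treated arrays, 1.21% had a higher value for this difference. At 24 h the difference was 0.97 (1.96-fold) and just past the threshold (limma adjusted p = 0.0496). With the block both passed (limma adjusted p = 0.019 at 24 h and 0.00513 at 48 h).

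The call of COL7A1 at 48 h was lost without the 48 h array of run 1 (limma adjusted p = 0.0592) or of run 3 (0.0637) and kept without any 1 of the other 7. That at 24 h held only without the 24 h array of run 2 (0.0453) and was lost without any 1 of the others (0.0545 to 0.14). Without the 24 h array of run 3 the log2 difference at 24 h was 0.67. Since untreated values lay at the filter of 4, the folds of COL7A1 start close to background. A second, dimmer COL7A1 set had 2.38, 1.78 and 2.03 in untreated cells, 2.54, 2.48 and 3.09 at 24 h, and 2.43, 2.75 and 3.06 at 48 h, below the filter and with no overlap.

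COL6A1, the alpha1 chain of type VI collagen, had 7.19, 7.04 and 7.14 in untreated cells, 7.50, 7.64 and 7.75 at 24 h, and 7.25, 7.29 and 7.29 at 48 h. Its 3 groups did not overlap, with 24 h highest and 48 h just above untreated cells. The difference within a run was 0.31, 0.59 and 0.61 at 24 h and 0.06, 0.25 and 0.15 at 48 h. At 24 h the log2 difference was 0.50 ± 0.12 (SE; 1.42-fold; limma adjusted p = 0.0475; 0.0219 with the block), and at 48 h it was 0.15 (1.11-fold; limma adjusted p = 0.703; 95% interval −0.12 to 0.43).

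The call of COL6A1 at 24 h depended on single arrays. It held without the 24 h array of run 1 (limma adjusted p = 0.0457) and was lost without any 1 of the other 8 arrays (0.0852 to 0.17), and it missed the threshold when every gene or every probe set was tested (0.0515 and 0.0531). The other 7 probe sets of COL6A1 stayed between 0.93 and 2.25 on all 9 arrays, at background, so that the level and the change of this gene rest on 1 set. That set has the suffix _s_at, which Affymetrix gives to sets whose probes can match more than 1 transcript.

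Between 48 h and 24 h of TGFβ1, 0 of the 4 collagens passed in limma, with or without the block, and 0% of all genes did. At an unadjusted p under 0.05, 1 of the 4 differed in either fit, as did 5.01% of all genes without the block and 16.2% with it. The 1 was COL6A1, whose mean log2 value was 7.28 ± 0.025 at 48 h and 7.63 ± 0.13 at 24 h (SD, n = 3 each). Its log2 difference was −0.35 (limma adjusted p = 0.781; 0.234 with the block). The 2 times did not overlap, which held downwards for 6.25% of genes, and COL6A1 was lower at 48 h in 3 of 3 runs (−0.25, −0.34 and −0.46), which held for 22.3%.

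The brighter sets of COL4A1 and COL4A2 were each lower at 48 h than at 24 h in all 3 runs, by small amounts of −0.06 and −0.07 on average (95% interval −0.48 to 0.35 for COL4A1 and −0.44 to 0.30 for COL4A2). The dimmer sets did not show this: that of COL4A1 differed by 0.27, 0.02 and −0.17 in runs 1, 2 and 3 (mean 0.04), and that of COL4A2 by −0.02, −0.05 and 0.03 (mean −0.01). COL7A1 was higher at 48 h in runs 1 and 2, by 0.60 and 0.54, and lower in run 3, by −0.16. Its mean difference was 0.33 (95% interval −0.20 to 0.86). In the F test over the 3 groups, which asks for any difference among the times, COL7A1 passed (limma adjusted p = 0.0279), as did 4.12% of genes. With the block all 4 did (limma adjusted p = 0.00178 to 0.0451), as did 11.2% of genes.

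The chains of the interstitial fibrils were read at or near background at every time. The 15 probe sets of COL1A1, COL1A2, COL3A1, COL5A1 and COL5A2 lay between 0.85 and 3.18 on all 9 arrays, and 14 of them never exceeded 2.63. None of the 5 genes passed the filter, so none was tested beside the 4 above.

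COL1A1, the alpha1 chain of type I collagen, was the gene whose brightest set left that band. It had 2.18, 1.51 and 1.49 in untreated cells, 2.98, 3.07 and 3.18 at 24 h, and 3.14, 2.23 and 3.15 at 48 h. At either time the treated arrays lay above all untreated ones, which with no filter held upwards for 6.58% of genes at 24 h and 6.23% at 48 h, although the 48 h array of run 2 lay just above the highest untreated one. With all 11963 genes tested and no filter, which 0.869% of genes passed upwards at 24 h and 0.811% at 48 h, COL1A1 had a log2 difference of 1.35 ± 0.26 at 24 h (SE; limma adjusted p = 0.037) and 1.11 at 48 h (limma adjusted p = 0.0848; 0.0208 with the block).

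Since the untreated values lie below the array median, the size of that difference cannot be read as a fold in transcript, and the other 3 COL1A1 sets did not show a step of that size. The next brightest had 1.86, 2.07 and 2.22 in untreated cells, 2.22, 2.63 and 2.51 at 24 h and 1.93, 2.37 and 2.22 at 48 h. It was higher at 24 h in all 3 runs, by less than the brightest set. All 3 dimmer sets lay between 1.15 and 2.63 throughout. COL1A2, whose product joins that of COL1A1 in type I collagen, had 1.58, 1.79 and 1.58 in untreated cells, 1.67, 1.11 and 1.61 at 24 h, and 1.43, 1.58 and 1.58 at 48 h on its brightest set. COL1A2 was not higher after TGFβ1 at either time: its 24 h values overlapped with the untreated ones, and its highest 48 h value equalled the lowest untreated one. It had a log2 difference of −0.18 ± 0.16 at 24 h (SE; limma adjusted p = 0.745 with no filter).

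COL3A1, the single chain of type III collagen, had 1.83, 1.84 and 1.36 in untreated cells, 1.49, 1.31 and 1.32 at 24 h, and 1.48, 1.32 and 1.52 at 48 h on its brightest set. Its next brightest set went the other way at 24 h, with 1.22, 1.54 and 1.25 in untreated cells and 1.62, 1.68 and 1.47 at 24 h, also at background. COL5A1 and COL5A2, chains of the type V collagen that is built into type I fibrils, ranged from 1.15 to 2.43 and from 1.22 to 1.89 over all their sets. Their brightest sets differed from untreated cells by 0.03 and −0.11 at 24 h and by 0.04 and −0.07 at 48 h. With no filter and no block, the 3 genes had limma adjusted p-values of 0.503 to 0.984 against untreated cells, and their values do not tell a silent gene from one too low for this array.

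Beyond the 10 genes, 23 of 34 other collagen genes had a named probe set, and 1 of them, COL18A1, was above the filter. COL18A1, a basement membrane collagen whose fragment is endostatin, had 4.01, 4.71 and 4.60 in untreated cells, 4.26, 4.26 and 4.51 at 24 h, and 4.09, 3.96 and 4.84 at 48 h. It overlapped between the groups and did not pass (−0.10 ± 0.26, SE, limma adjusted p = 0.906 at 24 h, and −0.14, limma adjusted p = 0.908 at 48 h). Of the 22 genes below the filter, 19 stayed below 3 on every array, the other type IV chains COL4A3, COL4A4, COL4A5 and COL4A6 and the type VI chain COL6A3 among them.

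COL6A2, named here after its values were seen because its product assembles with that of COL6A1, came closest to the filter. It had 3.02, 3.55 and 3.10 in untreated cells, 4.17, 3.68 and 4.33 at 24 h, and 3.88, 3.81 and 3.89 at 48 h. Its treated arrays lay above all untreated ones. With no filter its log2 difference was 0.84 ± 0.19 at 24 h (SE; limma adjusted p = 0.0653; 0.0411 with the block) and 0.64 at 48 h (limma adjusted p = 0.198; 0.14 with the block). In the same fit COL14A1, a fibril-associated collagen at background, differed the other way, by −0.72 at 24 h and −0.74 at 48 h (limma adjusted p = 0.317 and 0.338; 0.0407 and 0.0426 with the block). It had 2.80, 1.92 and 2.49 in untreated cells, 1.98, 1.64 and 1.44 at 24 h, and 1.93, 1.21 and 1.87 at 48 h, was lower in 3 of 3 runs at both times, and overlapped with untreated cells.

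**Figure D3:**
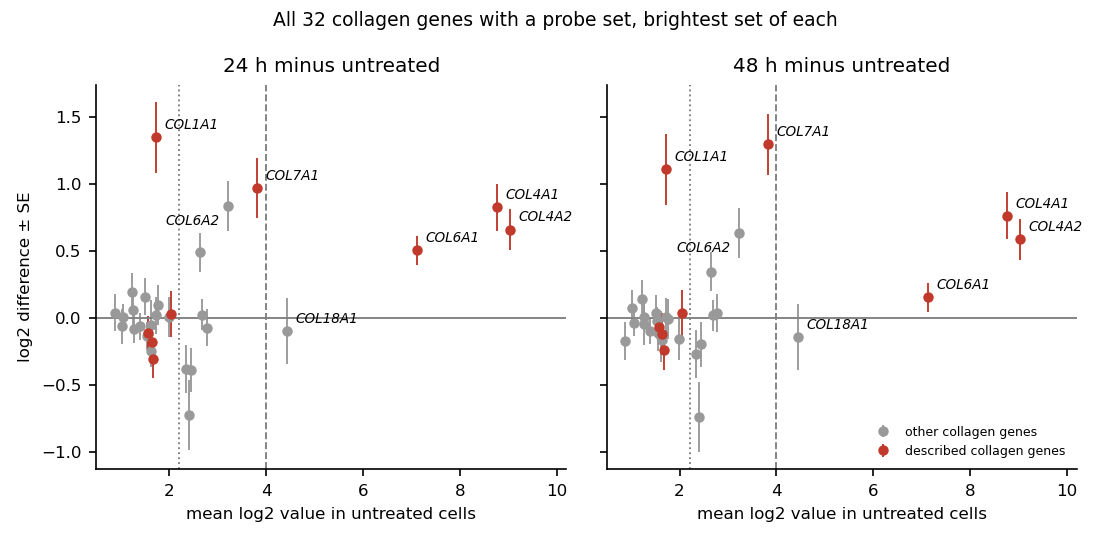
Difference in log2 value from untreated cells ± SE (y axis; 24 h on the left, 48 h on the right; fit with no filter) against the mean log2 value in untreated cells (x axis) for the collagen genes with a named probe set. The 9 measured genes of the described set are red and the 23 others grey; dotted and dashed lines mark the array median and the filter at 4. COL4A1, COL4A2 and COL6A1 lie far right of the filter and above 0, COL7A1 lies at it, and COL1A1 lies above 0 from a level below the array median, where most genes stay near 0.

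Genes that act with collagens were taken from lists of receptors, of folding and processing enzymes and of matrix partners. Of 3 collagen receptors tested, out of 9 on the array, none passed in limma at either time. Of all genes, 2.63% at 24 h and 2.27% at 48 h passed upwards and 2.17% at each time downwards, so 0 of 3 does not set the receptors apart. With the block 5.95% and 5.22% of all genes passed upwards at these times, and 5.52% and 4.81% downwards. With the block ITGA3, an integrin alpha chain known mainly as a laminin receptor, was lower at 24 h and at 48 h (−0.80 and −0.81, limma adjusted p = 0.00561 and 0.00546) and the integrin beta1 chain ITGB1 was higher at 48 h (0.55, limma adjusted p = 0.0366). The median difference of the 3 was 0.33 at 24 h and 0.22 at 48 h.

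Of 18 genes for collagen folding, secretion and processing, 0 rose and 1 fell at 24 h, and 1 rose and 1 fell at 48 h. Upwards 2.63% and 2.27% of all genes passed at these times and downwards 2.17% at each. ADAMTS3, a procollagen N-proteinase, was the gene that fell: it had 7.85, 8.00 and 8.11 in untreated cells, 6.61, 6.13 and 6.27 at 24 h, and 6.82, 7.07 and 6.69 at 48 h, with no overlap (−1.65 ± 0.17 at 24 h, SE, limma adjusted p = 0.000704, and −1.13 at 48 h, limma adjusted p = 0.00496). P4HA2, a catalytic subunit of collagen prolyl 4-hydroxylase, rose at 48 h (0.86 ± 0.20, SE, limma adjusted p = 0.0413) and was at 0.80 at 24 h (limma adjusted p = 0.0549; 0.00366 with the block).

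With the block 2 of the 18 rose at 24 h (5.95% of all genes), P4HA2 and the cross-linking enzyme LOX, and 4 at 48 h (5.22%), these and the COPII coat genes SEC23A and SEC24D, while ADAMTS3 remained the 1 that fell. LOX reached 4 on 3 arrays, all of treated cells, with 2.49, 2.72 and 3.66 in untreated cells, so that its passing the filter was tied to its being higher there. The list's median difference was 0.25 at 24 h and 0.14 at 48 h. SERPINH1, the collagen chaperone HSP47, was at 0.08 ± 0.11 at 24 h (SE; limma adjusted p = 0.786) and 0.12 at 48 h (limma adjusted p = 0.775). Of 10 tested fibril and basement membrane partners, SPARC, which binds collagens, and thrombospondin 1 (THBS1) rose at 24 h and at 48 h. Upwards 2.63% and 2.27% of all genes passed at these times, and none of the 10 fell. With the block fibronectin (FN1) also rose (0.53, limma adjusted p = 0.0421) and the type IV collagen cross-linking enzyme PXDN fell (−0.50, limma adjusted p = 0.0256) at 48 h, where 5.22% of all genes passed upwards and 4.81% downwards. SPARC differed by 1.07 and 1.29 (limma adjusted p = 0.0114 and 0.00461) and THBS1 by 1.59 and 1.63 (limma adjusted p = 0.0373 and 0.0344). Other scaffold genes of the basement membrane, LAMB1, LAMC1, NID1 and AGRN, did not pass at either time in either fit, with differences between −0.34 and 0.66. The partners' median difference was 0.09 at 24 h and 0.05 at 48 h.

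**Figure D4:**
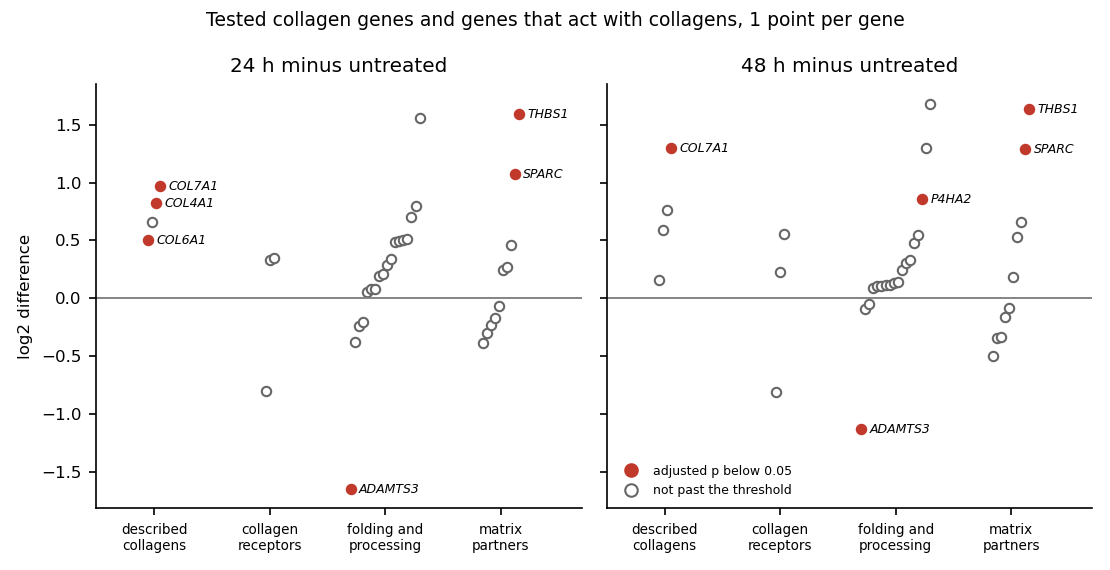
Difference in log2 value from untreated cells (y axis; 24 h on the left, 48 h on the right; fit with no block) for the tested genes of 4 lists (x axis), 1 point per gene, sorted within a list. Filled red points have a limma adjusted p below 0.05 and are named. ADAMTS3 is the lowest point at both times, SPARC and THBS1 are the named matrix partners, and 3 of the described collagens are named at 24 h and 1 at 48 h.

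The tested genes whose profile over the 9 arrays was most like that of a collagen, by Pearson's r and leaving all collagen genes out, are given as a description, since arrays of a time point and of a run share their shifts. For COL4A1 they were the heparan sulfate sulfotransferase gene HS3ST3A1 (r = 0.984) and KLF7 (r = 0.980), and for COL4A2 the focal adhesion gene TNS1 (r = 0.984) and again HS3ST3A1 (r = 0.980). COL4A1 and COL4A2 were more like each other than like any of these (r = 0.987). VDAC2 (r = 0.945) and the adenosine deaminase gene ADA (r = 0.943) came closest to COL6A1, and CRIP2 (r = 0.966) and ARHGEF40 (r = 0.948) to COL7A1. KLF7, TNS1 and ARHGEF40 had mean log2 values of 3.65, 4.95 and 4.43 over the 9 arrays and differed from untreated cells by 1.33, 2.72 and 1.62 at 24 h. Their passing the filter can thus be tied to their being higher in treated cells, which itself favours a high r with a collagen that is higher there. None of the 4 genes shared both of its nearest genes with another, and the profiles of COL6A1 and COL7A1 were the least alike among the 4 (r = 0.569).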

How the data were processed

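RNA of 9 pooled HK-2 cultures was hybridised to 1-colour Affymetrix arrays. The authors deposited 1 log2 value per probe set and array. The submitters' processing notes name GCRMA, without a version, which corrects the background, normalizes between arrays and summarises probes. No note states the log base, and the range of the values fits log2. No further normalization was applied. Of 22277 probe sets, 19070 had 1 gene symbol in the platform annotation, and 19058 of these matched RefSeq. Group differences came from limma 3.58.1 (R 4.3.3) on all 9 arrays, with Benjamini-Hochberg adjustment over the 4368 genes past the filter and a threshold of 0.05. The fit with no block was tested on simulated data. These had independent noise on each array and no shift shared within a run, so they do not show how that fit does with such shifts. The replicates are runs of 1 cell line, so p-values set a difference against the spread between runs. With the block they set it against the spread left once the levels of the runs are taken out. The labels say that runs took place on separate days. Deviations from the group means correlated at 0.378 to 0.662 between arrays of 1 replicate number and at −0.526 to 0.185 between others, so the number was taken as the run. The main fit left this pairing out, and the run entered as a block only in the results named so. The genes and lists were chosen with earlier results of these data known. Genes outside the 10 were named by rule: up to 4 per list past the threshold, and the 2 tested genes most correlated with each collagen. COL6A2 and the genes given to illustrate a list were added after their values were seen. The alternatives were the block, other filters, every probe set, repeated normalization, another variance model and leaving out arrays or runs. The number of arrays limits the precision.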

Additional observations from a re-analysis of the deposited data

How the results depend on the processing

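All 4 tested collagens stayed higher than in untreated cells under every alternative, and what moved was the side of the threshold (limma). The number called at 24 h (3 as reported) was 4 with the replicate block, with a floor of 5 and with arrays centred on their median. It was 2 with every probe set tested, 1 with no filter (COL1A1), 0 to 2 with 1 array left out and 0 with any 1 run left out. At 48 h (1 as reported) it was 3 with the replicate block, with every probe set tested and with an intensity trend and robust variance, 2 with a floor of 5, with quantile normalization repeated and with arrays centred on their median, and 0 to 3 without 1 array or run. In the F test (1 as reported) it was 4 with the replicate block, 3 with every probe set and with the trend, 2 with the other settings just named, and 0 to 1 without 1 array or run. The share of all genes called moved as well. Upwards at 24 h and 48 h it was 2.63% and 2.27% as reported, 5.95% and 5.22% with the block, and 0.869% and 0.811% with no filter. With every probe set, 2.43% and 2.26% of sets passed upwards. The F test called 4.12% of genes as reported and 11.2% with the block. The replicate block left every log2 difference as it was and moved COL4A1 at 48 h (0.76) and COL4A2 at 24 h (0.66) and 48 h (0.59) past the threshold. The trend did the same for these 3. COL4A1 at 48 h also passed with a floor of 5 (0.76, adjusted p = 0.046), with repeated quantile normalization (0.73, 0.0468) and with centring (0.76, 0.0436), and COL4A2 at 24 h with a floor of 5 (0.66, 0.0485) and with centring (0.67, 0.0451). With no filter COL4A1 at 24 h (0.83, 0.0508), COL6A1 at 24 h (0.50, 0.0515) and COL7A1 at 24 h (0.97, 0.0765) no longer passed, nor with every probe set COL6A1 (0.50, 0.0531) and COL7A1 at 24 h (0.97, 0.0535), nor with the trend COL6A1 (0.50, 0.0567). No filter and every probe set add tests, and the cause of the other shifts was not tested. Without 1 array or run the log2 difference at 24 h was 0.70 to 0.97 for COL4A1, 0.55 to 0.79 for COL4A2, 0.44 to 0.60 for COL6A1 and 0.62 to 1.19 for COL7A1. At 48 h it was 0.64 to 0.91 for COL4A1, 0.50 to 0.72 for COL4A2, 0.11 to 0.20 for COL6A1 and 1.19 to 1.39 for COL7A1. Between 48 h and 24 h it was −0.18 to 0.063 for COL4A1, turning above 0 without the 24 h array of run 3 (0.063) or the 48 h array of run 2 (0.015), and −0.16 to 0.035 for COL4A2, turning without the 24 h array of run 3 (0.035). The replicate block with 1 run left out was added after seeing the data. It called 1 to 3 of the 4 at 24 h, 2 to 3 at 48 h and 1 to 2 in the F test. In it COL4A1 passed at 48 h in 3 of 3 fits (0.77 without run 1, 0.73 without run 2 and 0.79 without run 3) and also at 24 h in 3 of 3. COL4A2 passed at 24 h without run 1 (0.67) or run 3 (0.68) and at 48 h without run 3 (0.64). COL6A1 at 24 h passed in none (0.60, 0.46 and 0.45), and COL7A1 at 24 h was lost without run 2 (1.10) or run 3 (0.62). Values near the array median, those of COL1A2, COL3A1, COL5A1 and COL5A2 among them, cannot be told from background. COL1A1 and COL6A2, also below the filter, were tested only in the fits with no filter, and the untreated values of COL1A1 lie below the array median.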
